A study of Mus musculus with 4 samples.

Results

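The Wnt, Fzd, Sfrp, Dkk and Rspo genes described here were 41 of the 20774 genes that could be built from the exon blocks matched by the authors. They were taken by symbol alone, as every mm9 gene named Wnt, Fzd, Sfrp, Dkk or Rspo followed by a number. Genes under other symbols, such as Frzb and Dkkl1, were left out of the set and counted among other secreted modulators. The set held 19 Wnt, 10 Fzd, 4 Sfrp, 4 Dkk and 4 Rspo genes, and none of them shared an exon block with another gene.

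Wnt proteins are lipid-modified secreted ligands that act over short distances, and Frizzled (Fzd) proteins are their seven-pass receptors, which work together with Lrp5 or Lrp6 to stabilise beta-catenin. Secreted frizzled-related proteins (Sfrp) resemble the ligand-binding part of Frizzled and bind Wnt ligands, Dickkopf proteins (Dkk) mostly block Lrp5 and Lrp6, and R-spondins (Rspo) bind Lgr receptors and keep Frizzled at the cell surface. In the intestine this pathway maintains the stem cells at the crypt base, and its ligands come both from Paneth cells and from the stroma under the crypts.

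The 4 libraries came from C57BL/6 mice aged 9 to 10 weeks, with 1 library per tissue and protocol. By the methods, small intestine was jejunum and colon was distal colon. Both were frozen as total tissue, so epithelium, muscle and connective tissue were mixed. In the cDNA fragmented protocol, polyadenylated RNA was reverse transcribed from oligo-dT with template switching, amplified and then fragmented. In the RNA fragmented protocol, RNA was fragmented first and adaptors were ligated by strand, and the labels give ribosomal RNA-depleted input where the methods describe polyadenylated RNA. Input RNA and fragmentation may thus both differ between the protocols, and their parts cannot be told apart. No engineered allele and no treatment is given for any group. The study's discussion describes both tissues as taken from the same individuals, and which animal gave which library is not given in the sources used here. The tissues were compared within each protocol, where there is no replicate, and a model over both protocols with protocol as a block, which would leave 1 residual degree of freedom, was not run. Each interval is a 95% interval of counting error between individual libraries.

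Uniquely placed reads numbered 22484041 in small intestine and 24798934 in colon by cDNA fragmentation, and 2035386 and 3478387 by RNA fragmentation. They made up 29.0% and 29.8% of all reads by cDNA and 5.59% and 9.28% by RNA fragmentation. All reads by cDNA fragmentation, 77504263 and 83302412, equalled the totals in the study's mapping summary. By RNA fragmentation they were 36419942 and 37466674, far fewer than that summary gives. Whether the deposited RNA fragmented libraries are those described in the study could not be settled. The 7 small intestine marker genes, led by Fabp2 and Apoa4, and the 7 colon marker genes, led by Car1 and Aqp8, were each called on the labelled side in both pairs by the interval rule described below. The libraries nevertheless stood apart in other genes. In the cDNA fragmented pair, Xist had 1751 reads in small intestine and 31 in colon, whereas the Y-linked gene Eif2s3y had 0 and 1191, which goes against one animal having given both libraries. Tissue and sex of the animals cannot be told apart in that pair. In the RNA fragmented pair Eif2s3y had reads in both libraries, 40 and 143. Pancreatic acinar markers summed to 18.7 RPKM in small intestine and 1072 RPKM in colon by cDNA fragmentation, and to 3468 and 300 RPKM by RNA fragmentation. RPKM gives the reads on a kilobase of exon in 1000000 uniquely placed reads. The leading genes of each list are named by RPKM summed over the 4 libraries, and their order could differ in single libraries. Of the acinar markers these were Cela1 and Cela2a, whereas Ctrb1 was highest in RNA fragmented small intestine (883.5 RPKM). Cela2a had 0, 5503, 1312 and 8 reads in small intestine and colon by cDNA and then by RNA fragmentation. The part of these differences in the results below was not tested.

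Fzd receptors were detected more widely than Wnt ligands. Presence required more than 0.01 RPKM and reads from at least 2 start points, which are distinct positions and strands where reads begin. By this criterion 29 of the 41 genes were present in small intestine and 32 in colon by cDNA fragmentation, and 21 and 25 by RNA fragmentation. Among all genes the shares were 74.4%, 77.4%, 65.0% and 70.4% in that order. The counts by cDNA fragmentation include Dkk1 and Dkk4. With at most 1 colour mismatch Dkk1 had 0 reads in small intestine and 0 in colon there, and Dkk4 had 1 and 0. All 10 Fzd genes were present in both cDNA fragmented libraries and in the RNA fragmented colon library, and 9 in the RNA fragmented small intestine library. Of the 19 Wnt genes, between 7 and 11 were present per library. No read was placed on Wnt1, Wnt7a, Wnt8a, Wnt10a or Wnt16 in any library. Presence depends on depth, and the floor of 3 reads corresponded in Wnt1 to 0.0563 RPKM in the cDNA fragmented and 0.622 RPKM in the RNA fragmented small intestine library.

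**Figure D1:**
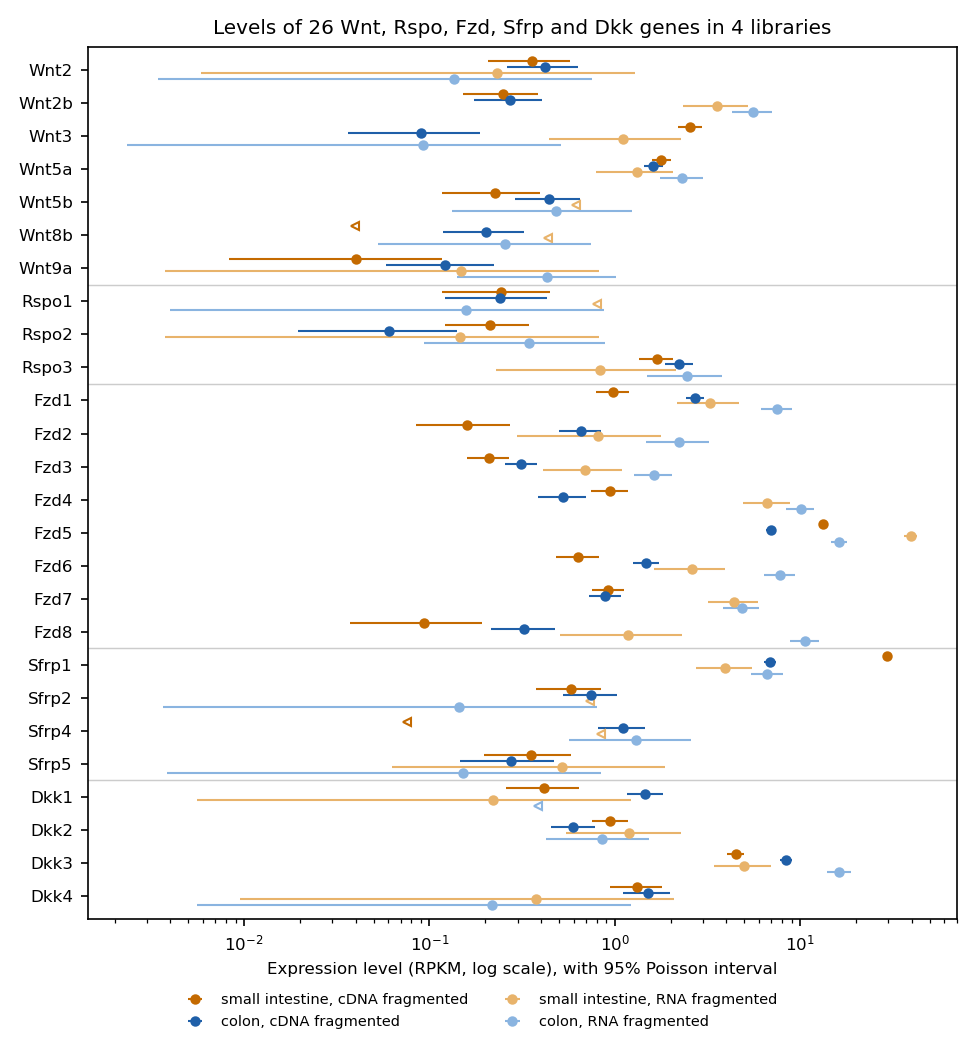
Expression level in RPKM on a log axis for the 26 genes with at least 10 reads in a library, grouped as Wnt, Rspo, Fzd, Sfrp and Dkk. Points are single libraries in 4 colours, bars are 95% Poisson intervals, and open triangles mark 0 reads at the level of 3 reads. Fzd5 stood above the other Fzd genes in all 4 libraries, and Sfrp1 in the cDNA fragmented small intestine library was at 29.3 RPKM.

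A single gene accounted for most of the summed level of the Sfrp, Dkk and Rspo families in each library. Among the Fzd genes, Fzd5 did so in the small intestine libraries only. Fzd5 made up 76.3% and 49.9% of the summed Fzd RPKM in small intestine and colon by cDNA fragmentation, and 65.6% and 26.0% by RNA fragmentation. Sfrp1 made up between 76.4% and 96.9% of the summed Sfrp RPKM, Dkk3 between 62.6% and 93.8% of the Dkk RPKM and Rspo3 between 70.2% and 88.1% of the Rspo RPKM. The 70.2% of Rspo3 rests on 4 of 6 reads in RNA fragmented small intestine. The Dkk sums by cDNA fragmentation include Dkk1 and Dkk4, most of whose reads carried 3 colour mismatches, as given below. The leading Wnt gene differed by library: Wnt3 in cDNA fragmented small intestine (44.2%), Wnt5a in cDNA fragmented colon (42.9%) and Wnt2b in both RNA fragmented libraries (39.7% and 50.6%).

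Between the tissues, differences were found in both directions, and 0 of the 41 genes were called in the same direction by both protocols at the thresholds used. By either rule, 4.09% of all 20774 genes were called as higher in colon and 2.22% as higher in small intestine by both protocols. The count depended on scaling and threshold, as given below. Calls were made by a 3-fold rule and by an interval rule. The 3-fold rule divides the RPKM of one tissue by that of the other plus 1, so a gene below 3 RPKM in both tissues cannot be called. Most of the 41 genes lay below this level in each pair, among them Wnt3, and were thus out of reach of the 3-fold rule. In the cDNA fragmented pair it called Sfrp1 as higher in small intestine, 1 of 41 genes where 2.16% of all genes were called, and 0 genes as higher in colon, against 2.53% of all genes. In the RNA fragmented pair it called Fzd8 as higher in colon, 1 of 41 against 4.73% of all genes, and 0 as higher in small intestine, against 2.69%. The interval rule requires that the whole counting interval of the ratio lies beyond 2-fold, among genes with a read in the pair. By cDNA fragmentation it called Dkk1, Fzd1, Fzd2, Sfrp4 and Wnt8b as higher in colon, 5 of 35 genes against 13.0% of all genes. It called Sfrp1 and Wnt3 as higher in small intestine, 2 of 35 against 5.90%. By RNA fragmentation it called Dkk3 and Fzd8 as higher in colon, 2 of 34 against 9.60%, and Fzd5 as higher in small intestine, 1 of 34 against 5.34%. The shares of the 41 genes, between 2.44% and 14.3% where any gene was called, lay near or below the background.

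A weaker reading asks only on which side of 1 the whole interval lies. Higher in colon were 10 of 35 genes by cDNA fragmentation, against 46.2% of all genes, and higher in small intestine were 6, against 21.0%. By RNA fragmentation 9 of 34 genes lay on the colon side, against 33.7% of all genes, and 2 on the small intestine side, against 17.0%. Fzd1, Fzd2, Fzd3, Fzd6, Fzd8 and Dkk3 lay on the colon side in both pairs, and Wnt3 and Fzd5 on the small intestine side in both. The share of all genes on the same side of 1 in both pairs was not counted on any scale. These names therefore stand without a background.

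The scaling shifted these splits. The median ratio of colon to small intestine over genes with reads in both libraries was 1.32 by cDNA and 1.27 by RNA fragmentation. When libraries were scaled to this median, ratios of colon to small intestine dropped by 0.40 and 0.34 on the log2 scale. The interval rule then called 1236 genes as higher in colon and 1634 as higher in small intestine by cDNA fragmentation, in place of 2236 and 1012, and 948 and 1282 by RNA fragmentation, in place of 1548 and 861. The 3-fold rule then called 344 and 585 genes by cDNA and 628 and 754 by RNA fragmentation, in place of 525 and 449, and 983 and 558. On this scale the colon side in both pairs held Fzd1, Fzd6, Fzd8 and Dkk3, while the interval of Fzd2 by RNA fragmentation (0.875 to 6.36) and that of Fzd3 by cDNA fragmentation (0.813 to 1.59) held 1. Wnt3 and Fzd5 remained on the small intestine side in both pairs. The counts by side of 1 then were 8 towards colon and 8 towards small intestine by cDNA fragmentation, against 30.75% and 33.05% of all genes, and 5 and 2 by RNA fragmentation, against 23.19% and 24.06%. The balance of all genes between the tissues thus turned on the scale used.

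On the scaled values, the interval rule called Fzd5 as higher in small intestine in both pairs, by 2.51-fold (2.34 to 2.70) and 3.09-fold (2.71 to 3.53). When the interval rule was set at 1.5-fold instead, Fzd1, Fzd6 and Dkk3 were called as higher in colon in both pairs, and Fzd5 and Wnt3 as higher in small intestine. With a penalty of 0.1 RPKM in the 3-fold rule these were Sfrp4 and Wnt3, in colon and small intestine respectively, and with start points in place of reads Sfrp4. Start points were scaled to their own totals, 7337402 and 7680446 in the cDNA fragmented libraries, and the penalty stayed at 1. The values thus rose against the penalty, and the 3-fold calls by start points do not reflect the removal of repeated reads alone. Of all genes, 3.26% were called as higher in small intestine in both pairs on the scaled values, 7.62% and 3.36% as higher in colon and in small intestine at 1.5-fold, 5.33% and 2.55% with the penalty of 0.1 RPKM, and 2.83% as higher in colon with start points.

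**Figure D2:**
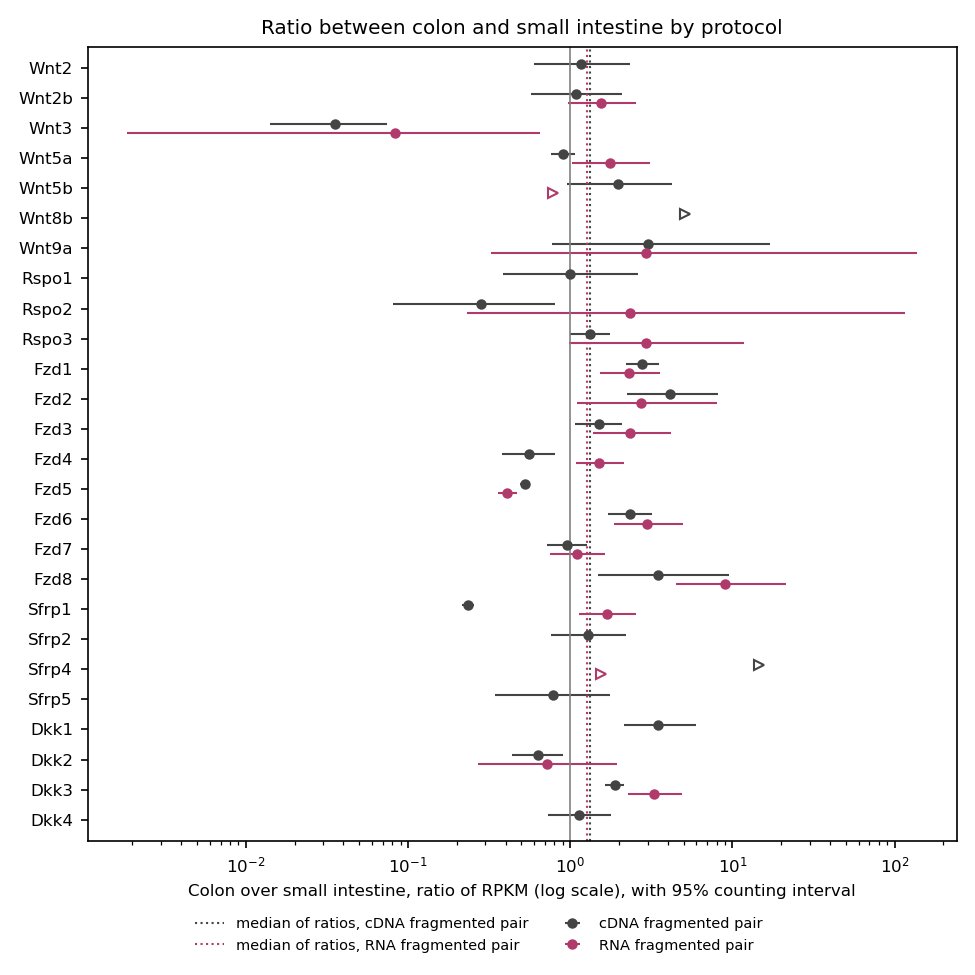
Ratio of RPKM in colon to RPKM in small intestine on a log axis for the 26 genes with at least 10 reads in a library, in the cDNA fragmented pair (dark grey) and the RNA fragmented pair (purple-red). Bars are 95% counting intervals, open triangles are lower bounds against 3 reads, the solid line is a ratio of 1 and dotted lines are the median ratios of 1.32 and 1.27. A pair in which neither library had more than 3 reads has no point. Wnt3 and Fzd5 lay left of 1 in both pairs, whereas Sfrp1 and Fzd4 lay on opposite sides of 1 in the 2 pairs.

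Among the ligands with reads in both libraries of a pair, Wnt3 was the gene with the largest difference. Wnt3, a ligand that Paneth cells supply to neighbouring stem cells, lies on chromosome 11 (103635489 to 103679335, plus strand). Wnt3 had 179 reads in small intestine and 7 in colon by cDNA fragmentation, and 7 and 1 by RNA fragmentation. These reads corresponded to 2.56 RPKM (2.20 to 2.96) and 0.0906 RPKM (0.0364 to 0.187), and to 1.10 RPKM (0.444 to 2.28) and 0.0923 RPKM (0.00234 to 0.514). Small intestine exceeded colon by 28.2-fold (interval 13.4 to 71.2) and by 12.0-fold (interval 1.54 to 539). The second value rests on 8 reads in all, and its interval does not lie beyond 2-fold. Most Paneth cell markers lay on the same side as Wnt3. All 5 were called as higher in small intestine by the interval rule in the cDNA fragmented pair and 3 of 5 in the RNA fragmented pair, Ang4 lay on the colon side in the latter pair (336 and 704 reads, ratio 1.23, 1.08 to 1.40), and none was at 0 in any library. Their summed level was 18666 and 527 RPKM, and 2670 and 355 RPKM. Itln1 and Lyz1 led in both small intestine libraries, whereas Ang4 made up most of the sum in both colon libraries (443 and 291 RPKM). The part of these markers in the Wnt3 difference was not tested, and in whole tissue fewer cells of a type and less RNA per cell cannot be told apart.

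Wnt5a, which mainly acts through beta-catenin-independent signalling and is made by stromal cells, had 284 and 283 reads by cDNA and 19 and 57 by RNA fragmentation in small intestine and colon. Its interval held 1 by cDNA fragmentation (ratio of colon to small intestine 0.904, 0.764 to 1.07) and lay on the colon side by RNA fragmentation (1.76, 1.03 to 3.13). After scaling to the median ratio the 2 intervals were 0.578 to 0.809 and 0.812 to 2.47.

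Wnt2b, another stromal ligand, had 20, 24, 26 and 69 reads in small intestine and colon by cDNA and then by RNA fragmentation. Its level was thus 0.249 and 0.271 RPKM by cDNA fragmentation and 3.58 and 5.55 RPKM by RNA fragmentation, and both tissue intervals held 1 when reads of both strands were counted (0.576 to 2.08 and 0.976 to 2.54). In these directional RNA fragmented libraries 8 of its 26 reads in small intestine and 6 of its 69 in colon lay on the opposite strand. With own-strand reads alone, 18 and 63, its interval lay on the colon side (2.05, 1.20 to 3.67).

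The other ligands were sparse. Wnt8b had 0 and 17 reads by cDNA and 0 and 3 by RNA fragmentation, which put colon at least 5.14-fold higher by cDNA fragmentation when 0 was set against 3 reads per library. The 17 reads lay in the last exon block and began at 16 start points. In the same order of libraries, reads were 17, 22, 1 and 1 for Wnt2, 12, 26, 0 and 4 for Wnt5b, and 3, 10, 1 and 5 for Wnt9a, and their intervals in the cDNA fragmented pair held 1. Fewer than 10 reads in every library were found for Wnt3a, Wnt4, Wnt6, Wnt7b, Wnt9b, Wnt10b and Wnt11. Of these, Wnt4 (9, 9, 2 and 2 reads) and Wnt6 (8, 8, 4 and 2) were highest, Wnt10b had 0, 4, 2 and 3 and Wnt11 0, 3, 0 and 5. The remaining reads were 2 of Wnt9b and 1 of Wnt3a, all in cDNA fragmented small intestine, and 3 of Wnt7b in RNA fragmented small intestine. The gene model of Wnt4 held only 3 bases of 3′ untranslated region. Reads further 3′ could not be counted on it, so its level may be understated.

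Among the R-spondins, which amplify Wnt signals through Lgr receptors, Rspo3 was the most abundant, with 89 and 130 reads by cDNA and 4 and 20 by RNA fragmentation. Its ratio of colon to small intestine was 1.32 (1.004 to 1.75), just on the colon side, by cDNA and 2.93 (0.980 to 11.8) by RNA fragmentation. After scaling to the median ratio it was 1.0 (0.759 to 1.33) and 2.31 (0.773 to 9.29), and both intervals held 1. The interval by cDNA fragmentation also held 1 with junction reads added (0.993 to 1.73). Rspo2 lay on the small intestine side by cDNA fragmentation, with 16 and 5 reads (3.53-fold, 1.24 to 12.3), and had 1 and 4 reads by RNA fragmentation. Rspo1 had 10, 11, 0 and 1 reads, and Rspo4 1, 0, 1 and 0.

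Among the receptors, Fzd5 was higher in small intestine and Fzd1, Fzd6 and Fzd8 lay on the colon side of the interval, in both pairs and on both scales. The share of all genes on the same side in both pairs was not counted, so this result stands without a background. Fzd5, a receptor of the crypt epithelium, lies on chromosome 1 (64777132 to 64784324, minus strand). It had 2056 and 1195 reads by cDNA and 557 and 390 by RNA fragmentation. Its level was 13.2 RPKM (12.7 to 13.8) in small intestine and 6.97 RPKM (6.58 to 7.38) in colon by cDNA fragmentation, and 39.6 RPKM (36.4 to 43.0) and 16.2 RPKM (14.7 to 17.9) by RNA fragmentation. Small intestine was higher by 1.90-fold (1.77 to 2.04) and 2.44-fold (2.14 to 2.79), so only the second interval lay beyond 2-fold in RPKM, whereas both did on the scaled values given above. The epithelial markers did not share one direction: of 9 markers, led by Krt20 and Krt8, 3 were called as higher in colon and 2 as higher in small intestine by the interval rule in the cDNA fragmented pair, and 3 and 3 in the RNA fragmented pair.

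Fzd8 showed the largest difference towards colon among the receptors in the RNA fragmented pair, and Fzd2 in the cDNA fragmented pair. It had 7 and 27 reads by cDNA and 8 and 124 by RNA fragmentation, and the ratio of colon to small intestine was 3.5 (1.49 to 9.51) and 9.07 (4.46 to 21.5). Fzd1 had 96 and 295 reads and 29 and 114 reads, with ratios of 2.79 (2.21 to 3.55) and 2.30 (1.52 to 3.59). Fzd6, a receptor known from planar cell polarity, had 59 and 152 reads and 22 and 112 reads, with ratios of 2.34 (1.72 to 3.21) and 2.98 (1.87 to 4.94). Each of these receptors thus lay on the colon side in both pairs, while their intervals overlapped 2-fold in at least 1 of the pairs. With at most 1 colour mismatch, Fzd8 had 6 and 13 reads by cDNA fragmentation, and its interval held 1 (ratio 1.98, 0.701 to 6.34).

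Fzd2 had 13 and 59 reads by cDNA and 6 and 28 by RNA fragmentation, with ratios of 4.12 (2.23 to 8.18) and 2.73 (1.11 to 8.07). Fzd3, which also acts in planar polarity and axon guidance, had 60, 99, 18 and 72 reads, with ratios of 1.5 (1.08 to 2.10) and 2.34 (1.38 to 4.17). Fzd7, a receptor of intestinal stem cells, had 100, 106, 43 and 81 reads, and its interval held 1 in both pairs (0.724 to 1.28 and 0.752 to 1.64). After scaling to the median ratio, the interval of Fzd7 lay on the small intestine side by cDNA fragmentation (0.548 to 0.965).

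Fzd4, the receptor for norrin in blood vessels, moved in opposite directions. It had 78 and 48 reads by cDNA fragmentation, where small intestine was 1.79-fold higher (1.24 to 2.62), and 50 and 129 reads by RNA fragmentation, where colon was 1.51-fold higher (1.08 to 2.14). Scaled to the median ratio, the second interval held 1 (0.853 to 1.69). Fzd9 had 4, 2, 5 and 5 reads and Fzd10 6, 3, 0 and 8.

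Most muscle markers lay on the same side as these receptors. Of 9 smooth muscle markers 8 were found in the gene models. By the interval rule 6 of 8 were called as higher in colon in each pair and none as higher in small intestine. Mylk, called in neither pair, lay on the small intestine side of 1 by cDNA fragmentation (colon over small intestine 0.850, 0.826 to 0.875). It lay on the colon side by RNA fragmentation (1.85, 1.71 to 2.0). None of the 8 was at 0, Actg2 and Acta2 led the list, and the summed level was 279 and 885 RPKM by cDNA and 261 and 1917 RPKM by RNA fragmentation. Markers of enteric neurons and glia, led by Snap25 and Uchl1, were called as higher in colon in 4 of 9 cases in each pair, with summed levels of 15.1 and 34.9 RPKM, and 8.77 and 40.1 RPKM. Sox10 was at 0 in the cDNA fragmented and S100b at 0 in the RNA fragmented small intestine library. Of 9 fibroblast markers, led by Dcn and Lum, 1 and 2 were called as higher in colon, and their summed level was 249 and 281 RPKM, and 105 and 254 RPKM. By ratio alone, 6 and 7 of them were higher in colon and 3 and 2 in small intestine. Fbln1 was among the latter in both pairs (colon over small intestine 0.508 and 0.423). The summed level of 6 adipocyte markers, led by Cfd and Cidec, was 53.2 and 189 RPKM, and 27.3 and 147 RPKM, that of 5 endothelial markers, led by Lyve1 and Pecam1, 26.1 and 29.5 RPKM, and 16.5 and 42.8 RPKM, and that of 7 immune markers, led by Igj and Cd79a, 3392 and 366 RPKM, and 385 and 387 RPKM. The part of these tissue components in the receptor differences was not tested.

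Sfrp1, a secreted Wnt antagonist of stromal cells, gave the most reads of all 41 genes in the cDNA fragmented small intestine library and the clearest conflict between protocols. It lies on chromosome 8 (24521974 to 24560102, plus strand). It had 2878 reads in small intestine and 747 in colon by cDNA fragmentation, which is 29.3 RPKM (28.2 to 30.4) and 6.89 RPKM (6.41 to 7.41). By RNA fragmentation it had 35 and 101 reads, which is 3.94 RPKM (2.74 to 5.47) and 6.64 RPKM (5.41 to 8.07). Small intestine was thus 4.25-fold higher (3.92 to 4.61) in the first pair, whereas colon was 1.69-fold higher (1.14 to 2.56) in the second. Scaled to the median ratio, the interval of the second pair held 1 (0.899 to 2.02). The 2 colon libraries lay close to each other in RPKM, and the 2 small intestine libraries differed. Several other genes differed between the 2 colon libraries, such as Fzd8 (0.326 RPKM by cDNA and 10.7 RPKM by RNA fragmentation). Which library the conflict in Sfrp1 came from was not tested. The 2878 reads began at 2084 start points, with at most 6 reads at any of them. Of the cDNA fragmented reads, 2875 and 742 began in the 3′ untranslated region and 3 and 5 in coding sequence. The 4.25-fold value thus rests on the 3′ untranslated region. Of the RNA fragmented reads, 3 and 20 began in coding sequence.

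Sfrp4 was found in colon only at this depth, with 0 and 48 reads by cDNA and 0 and 8 by RNA fragmentation. Against a floor of 3 reads per library, colon was at least 14.5-fold higher by cDNA fragmentation, whereas the counting interval of the RNA fragmented pair held 1. Its 48 reads were spread over 6 exon blocks, with 16 in the first and 22 in the last. Sfrp5 had 15, 13, 2 and 1 reads.

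Among the Dickkopf genes, Dkk3 lay on the colon side in both pairs, again without a background over all genes. Dkk3 is a divergent member that is not a typical Lrp5 and Lrp6 antagonist. It lies on chromosome 7 (119259533 to 119302571, minus strand) and had 339 and 702 reads by cDNA and 34 and 190 by RNA fragmentation. These reads corresponded to 4.49 RPKM (4.03 to 5.0) and 8.43 RPKM (7.82 to 9.08), and to 4.98 RPKM (3.45 to 6.95) and 16.3 RPKM (14.0 to 18.8). The ratio of colon to small intestine was 1.88 (1.65 to 2.14) and 3.27 (2.26 to 4.86). Dkk2 had 79, 55, 9 and 11 reads and lay on the small intestine side by cDNA fragmentation (1.58-fold, 1.11 to 2.28).

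In the cDNA fragmented libraries, part of the counts of Dkk1, Dkk4, Sfrp2 and Fzd3 came from single positions in simple repeats, and nearly the whole count of Dkk1 did. Dkk1, the founding Lrp5 and Lrp6 antagonist, had 21 and 81 reads in the 2 tissues, a ratio of 3.5 (2.14 to 5.95) that passed the interval rule. However, 19 of the 21 and 75 of the 81 began at the same base, and all of them carried 3 colour mismatches, the most that the matching allowed. SOLiD sequencing reports colours, and a colour stands for 2 adjacent bases, so a mismatch is counted in colours. Dkk1 had 0 reads with at most 1 mismatch in any library. Dkk4 had 39 and 49 reads, of which 36 and 47 carried 3 mismatches, and 8 and 12 of them began at the same base. Among all uniquely placed reads the share with 3 mismatches was 19.4% in both libraries.

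The reference under a position with at least 10 reads in a library is shown for these genes, and for Fzd5 under the one with the most reads, to show what the reads were matched to. They were chosen after their values were seen. Each line gives 30 bases of mm9 (NCBIM37) from the first base of the read onwards, 5′ to 3′ in the direction of the read, and all 5 lie in 3′ untranslated regions. Capitals mark runs of at least 8 identical bases or at least 4 copies of a pair of bases.
Dkk1, chr19:30621125-30621154, minus strand: cCTCTCTCTCTCTCTCTCTCTCTCTCTCTc
Dkk4, chr8:23737673-23737702, plus strand: TTTTTTTTTTTTGGGGGGGGGGGGcggggg
Sfrp2, chr3:83577760-83577789, minus strand: ttagaccacagagggAAAAAAAAAAAAAAA
Fzd3, chr14:65818822-65818851, plus strand: tcaatggtttcttcAAAAAAAAAAAAAAAA
Fzd5, chr1:64778915-64778944, minus strand: agggaagctgccttcggatgactaccccct
The positions in Dkk1, Dkk4, Sfrp2 and Fzd3 thus held a CT repeat, a run of T followed by runs of G, and runs of A. The Sfrp2 and Fzd3 reads ran against the strand of the gene, and those of Dkk1, Dkk4 and Fzd5 along it.

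In Sfrp2, another secreted antagonist, 21 of 26 reads in small intestine and 2 of 37 in colon began at the position shown, each with 3 mismatches. With at most 1 mismatch 4 and 21 reads were left, and the log2 ratio of colon over small intestine was 2.26 in place of 0.37. In Fzd3, 21 of 60 reads in small intestine and 2 of 99 in colon began there, again each with 3 mismatches. With at most 1 mismatch 19 and 55 reads were left, and the log2 ratio was 1.40 in place of 0.58. Fzd5 differed, since its position held no repeat: 25 of 557 reads of the RNA fragmented small intestine library began there, of which 20 carried 3 mismatches. Uniqueness had been judged by the authors among exons and junctions only, and the origin of these reads was not tested.

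**Figure D3:**
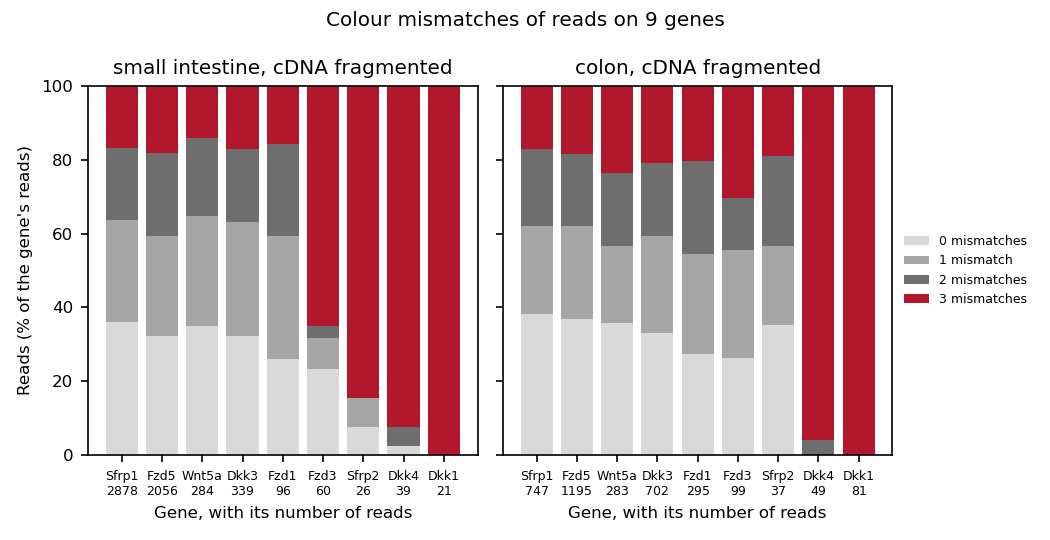
Share of reads with 0, 1, 2 or 3 colour mismatches (% of the gene's reads) for 9 genes in the cDNA fragmented small intestine library (left) and colon library (right), with the number of reads under each gene. All reads of Dkk1 carried 3 mismatches in both libraries, as did 92.3% and 95.9% of those of Dkk4, whereas Sfrp2 and Fzd3 differed between the libraries.

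Where on the genes the reads lay was a feature that the choice of genes did not use. In the 41 genes, 3′ untranslated regions made up 51.4% of the exon bases but held 95.7% (95.2 to 96.2, Wilson) of the reads of cDNA fragmented small intestine and 87.1% (86.0 to 88.0) of those of colon. By RNA fragmentation they held 76.0% (73.1 to 78.7) and 67.8% (65.4 to 70.1). Coding sequence made up 37.0% of the bases and held 3.91%, 11.8%, 18.6% and 28.5% of the reads in the same order. These pooled shares rest largely on Sfrp1 and Fzd5. Without these 2 genes, 3′ untranslated regions held 83.4%, 76.9%, 60.5% and 62.5% of the reads, against 50.1% of the bases, and coding sequence 15%, 21.0%, 34.8% and 34.1%, against 38.2%, so the intervals of the RNA fragmented libraries overlapped (54.9 to 65.9 and 59.6 to 65.4 for the 3′ untranslated share). In Sfrp1, 2875 of 2878 and 742 of 747 cDNA fragmented reads and 28 of 35 and 78 of 101 RNA fragmented reads began in the 3′ untranslated region. In Fzd5 the same held for 2042 of 2056 and 1185 of 1195 reads by cDNA, and for 468 of 557 and 311 of 390 by RNA fragmentation. In Fzd8 65 of its 124 RNA fragmented colon reads began in coding sequence.

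The 3′-most exon block held 97.3% and 91.2% of the reads of the 35 genes with several blocks by cDNA fragmentation and 90.5% and 85.8% by RNA fragmentation, against 66.2% of their length. Without Sfrp1 and Fzd5 these shares were 87.6%, 81.9%, 75.5% and 79.5%, against 63.9% of the length. Over the 18118 genes with several blocks, the 3′-most block held 52.4% and 50.8%, and 54.8% and 50.7% of the reads, against 45.5% of the length. Among those with at least 10 reads, the median share per gene was 64.8% and 63.9% by cDNA and 50.5% and 48.7% by RNA fragmentation. A higher share by cDNA fragmentation was thus also found in the median of all genes. The same medians over the members were 97.4%, 94.0%, 81.1% and 87.0%. The first block of Fzd5 had 0 reads in both cDNA fragmented libraries and 19 and 13 in the RNA fragmented ones. In Wnt5a, whose models begin with alternative first exons, the first block had 1, 0, 1 and 2 reads and the second, of 2777 bases, 2, 3, 4 and 1. In Rspo3 reads reached the first block in all 4 libraries, with 11, 24, 1 and 3. In Wnt3 the last block held 142 of 179 reads in cDNA fragmented small intestine.

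**Figure D4:**
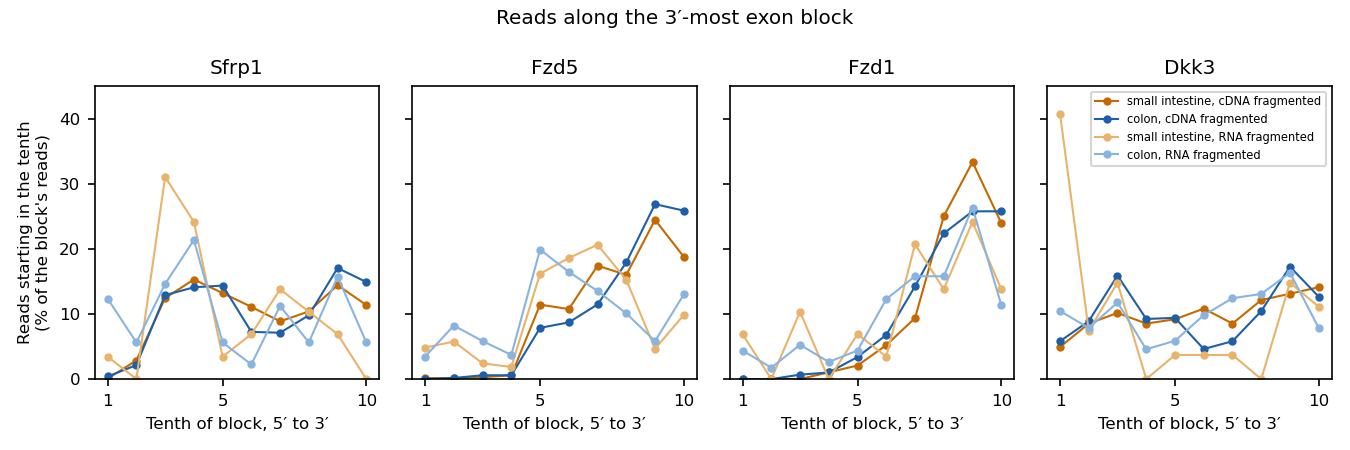
Reads that begin in each of 10 equal parts of the 3′-most exon block, 5′ to 3′, as % of the block's reads, for Sfrp1, Fzd5, Fzd1 and Dkk3 in 4 libraries. In Fzd5 and Fzd1 few reads began in the first 4 parts by cDNA fragmentation, whereas in the same libraries Dkk3 had reads in all 10 parts. The RNA fragmented small intestine line rests on 29 reads in Sfrp1, 29 in Fzd1 and 27 in Dkk3.

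The ends of the gene models were compared with the usual polyadenylation hexamers, since oligo-dT priming begins at the end of the transcript. In the last 30 bases, on the strand of the gene, 16 of 41 genes held AATAAA (39.0%, against 46.3% of all genes) and 8 more held ATTAAA (19.5%, against 11.1%). Either was found in 58.5% of the 41 and in 57.4% of all genes. The ends of 5 genes with tissue differences, chosen after their values were seen, are given with the hexamer in capitals.
Fzd5, chr1:64777132-64777161, minus strand: tgcATTAAAgcaatggtgaagaaaatgtaa
Wnt3, chr11:103679306-103679335, plus strand: tgttaaatcATTAAAgagaaggtaaacttc
Dkk3, chr7:119259533-119259562, minus strand: aaacAATAAAtgtaactgatgaagtcacct
Fzd1, chr5:4753839-4753868, minus strand: aaaaaaatgaaagttttgtacaaaattaca
Sfrp1, chr8:24560073-24560102, plus strand: tattcacttcactaaaatcactcgatcaat
The windows of Fzd1 and Sfrp1 held neither hexamer, and 327 of the Sfrp1 reads in small intestine by cDNA fragmentation began in the last 10% of the last block.

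Reads of the 41 genes followed the strand as the protocols prescribe. The share on the strand of the gene was 49.0% and 49.2% by cDNA fragmentation, and 98.2% (97.1 to 98.9) and 99.1% (98.5 to 99.5) by the directional RNA fragmentation. Of the 16 and 14 opposite reads there, Wnt2b accounted for 8 and 6.

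Sequence likeness among the genes was closest within the Fzd family and was found in 17 of the 41 genes. Of 128881 windows of 35 bases, 0.798% lay within 3 colour mismatches of a window in another of the 41 genes. The largest share was between Fzd1 and Fzd2, where 256 windows (5.89% of Fzd1 and 7.12% of Fzd2) were this close. Between Fzd1 and Fzd7 there were 105 such windows and between Fzd2 and Fzd7 77, so reads from these windows may have been removed or placed on the relative. Outside the Fzd family the largest share was 1.23% in Rspo1, and Sfrp1 had 38 such windows (0.89%), of which 25 were identical in colours to a window of another gene. Dkk1, Rspo1, Sfrp1, Wnt5a, Fzd3 and Fzd5 each had such windows in common with the others, across families. Fzd3 had them with no Fzd gene but Fzd5. Whether these windows lie in simple repeats was not tested.

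Other genes of the pathway were counted in lists, against the shares of all genes called by the interval rule, 13.0% and 9.60% as higher in colon and 5.90% and 5.34% as higher in small intestine by cDNA and by RNA fragmentation. Wls, Wif1 and Tcf7l1 were the genes of these lists called in the same direction in both pairs. In the ligand secretion list of 2 genes, Wls, the carrier that brings Wnt ligands to the cell surface, had 828 and 2645 reads by cDNA and 66 and 790 by RNA fragmentation, so colon was 2.90-fold (2.68 to 3.14) and 7.0-fold (5.44 to 9.15) higher. It was called by the interval rule in both pairs. Porcn, which attaches the lipid to Wnt ligands, had 18, 56, 0 and 20 reads and was called in the RNA fragmented pair only. The difference between the pairs was not tested.

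Among 12 co-receptors and other receptors, 0 were called by the interval rule in the cDNA fragmented pair and 4 as higher in colon in the RNA fragmented pair, where 9.60% of all genes were. These 4 were Ror1, Ptk7, Musk and Tspan12. Lgr4, an R-spondin receptor and the most abundant of the list in both RNA fragmented libraries, was at 20.1 and 16.4 RPKM by cDNA and 40.2 and 81.1 RPKM by RNA fragmentation. Tspan12, a partner of Fzd4 and the most abundant in both cDNA fragmented libraries, was at 32.0 and 53.4 RPKM, and at 7.10 and 28.9 RPKM. The list had a median log2 ratio (colon over small intestine, 0.1 RPKM added) of 0.36 and 1.58, against 0.34 and 0.42 over all genes.

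Of the 4 genes of receptor turnover and Dkk binding, Kremen2 alone was called, as higher in colon in the cDNA fragmented pair. Rnf43, a ligase that removes Frizzled, had 142, 250, 90 and 109 reads and Kremen1 21, 54, 66 and 219. Of 12 other secreted modulators, Wif1 and Sostdc1 were called as higher in colon by the interval rule in the cDNA fragmented pair, and Wif1 in the RNA fragmented pair. Wif1, which binds Wnt ligands outside the cell, had 3 and 58 reads by cDNA fragmentation (17.5-fold, 5.71 to 87.5) and 0 and 28 by RNA fragmentation (at least 5.46-fold). Gpc4, a glypican and the most abundant of the list in each library, was at 13.8 and 7.06 RPKM, and at 25.4 and 22.5 RPKM, followed in summed RPKM by Gpc3 at 1.77, 1.67, 2.17 and 5.33 RPKM.

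Of 17 intracellular genes, Tcf7l1 alone was called in both pairs. Tcf7l1, a mostly repressive partner of beta-catenin, had 234 and 1711 reads by cDNA and 3 and 69 by RNA fragmentation, and colon was 6.63-fold (5.78 to 7.63) and 13.5-fold (4.42 to 66.9) higher. The co-repressor Tle3 was called as higher in small intestine in the RNA fragmented pair only. Ctnnb1, which encodes beta-catenin, was at 93.0 and 107 RPKM, and at 180 and 260 RPKM, and Csnk1a1, a kinase of its destruction complex, at 47.0 and 34.6 RPKM, and at 138 and 204 RPKM. The median log2 ratio of the list was 0.20 and -0.05. That of the 41 genes was 0.09 and 0.75, among 35 and 34 genes with reads.

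**Figure D5:**
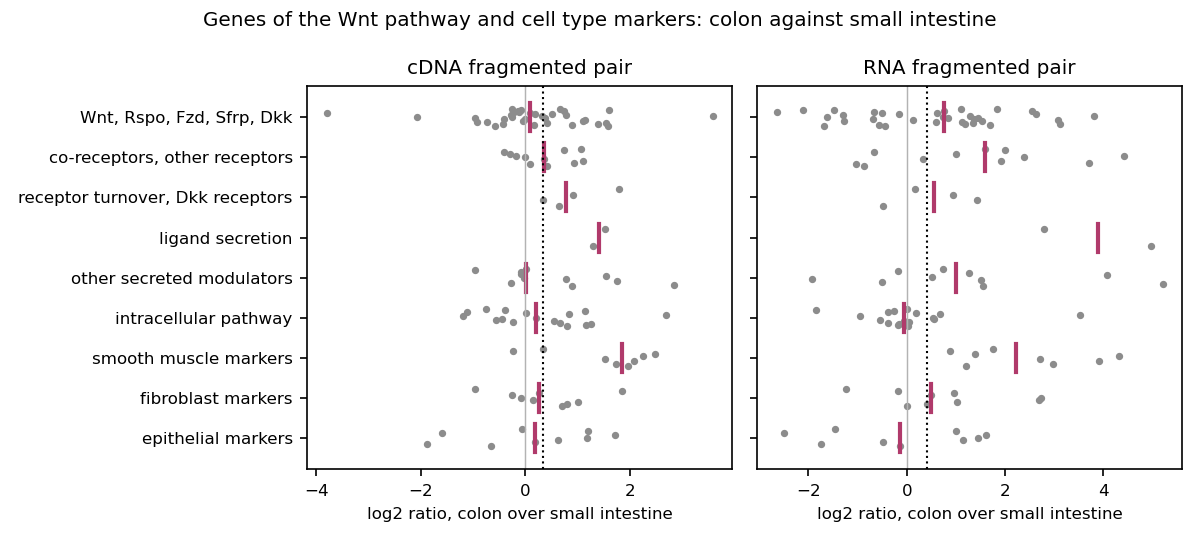
Log2 ratio of colon to small intestine, after 0.1 RPKM was added, for genes with reads in the pair (grey points), by list, in the cDNA fragmented (left) and RNA fragmented pair (right). Purple-red bars are list medians and the dotted line is the median of all genes, 0.34 and 0.42. The medians of the smooth muscle markers, 1.85 and 2.23, lay to the right of the dotted line in both pairs.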

How the data were processed

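The authors deposited match files, which hold for each SOLiD read its position, strand and number of colour mismatches, and tables of exon and junction positions. These deposited values are neither counts nor normalized values. By the deposited matching reports, the authors matched 35 colours per read with the corona pipeline, with up to 3 mismatches, to RefSeq exons of mm9 and their junctions. The methods describe genome matching with another program, and the corona version is not given in the sources used here. Reads with 1 placement were used. Exon blocks were joined to genes named from GENCODE M1 or refGene, and reads were counted on the block that holds their start, with a tolerance of 3 bases. Junction reads were left out of the main counts. RPKM was calculated per 1000000 uniquely placed reads, and with start points in place of reads per 1000000 start points. Intervals were exact Poisson for counts, exact conditional binomial for ratios and Wilson for shares, at the 95% level. They hold counting error alone, because copies made by amplification are not separate molecules. Where a library had 0 reads, 3 reads were taken as its floor.

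Genes with at least 10 reads in a library are named with their values. Of each pathway list, genes called in the same direction in both pairs and the 2 with the highest summed RPKM are named, and others named were chosen after their values were seen. The genes and lists were chosen with earlier results of these data known. Sequences of genes called in both protocols were to be printed, and there were none. Alternatives were other thresholds, penalties, fewer mismatches, start points, own-strand reads, unshared blocks, junction reads and median-of-ratios scaling. Calculations used Python 3.11.15, numpy 2.4.6, pandas 2.3.3, scipy 1.17.1 and matplotlib 3.10.9.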

Additional observations from a re-analysis of the deposited data

Results flagged for a closer look

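Sfrp1 and Fzd4 had counting intervals on opposite sides of 1 in the 2 protocols. For Sfrp1 the log2 ratio (colon over small intestine) was -2.09 in the cDNA fragmented pair and 0.76 in the RNA fragmented pair, and for Fzd4 it was -0.84 and 0.59. With 1 library per tissue and protocol the difference between the protocols was not tested. The pairs also differed in sex-linked and pancreatic acinar genes, whose part in this was not tested.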

How the results depend on the processing

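No paired analysis by replicate number was possible because the labels give no replicate numbers, and a model with protocol as a block was not run. No single gene with an interval on one side of 1 changed its direction under any alternative run. In the cDNA fragmented pair, the 3-fold rule called 1 gene as higher in colon (Sfrp4) and 2 as higher in small intestine (Wnt3 added) with start points in place of reads, and the same numbers with a penalty of 0.1 RPKM. Scaling to the total of start points raised the values against the penalty of 1, so both alternatives weakened the penalty. The interval rule called 2 as higher in colon with at most 1 colour mismatch and 2 with median-of-ratios scaling, where Dkk1, Fzd1 and Fzd2 were lost each time, and 7 at 1.5-fold. With start points it called 5, with Sfrp2 in place of Dkk1. As higher in small intestine it called 3 with median-of-ratios scaling and 3 at 1.5-fold (Fzd5 added each time). In the RNA fragmented pair, the 3-fold rule called 2 as higher in colon with start points and 6 with a penalty of 0.1 RPKM, and 2 as higher in small intestine with that penalty. The interval rule called as higher in colon 1 with median-of-ratios scaling, 1 with start points (Dkk3 lost each time) and 4 when set at 1.5-fold. As higher in small intestine it called 0 with at most 1 mismatch, 0 with start points (Fzd5 lost each time) and 2 at 1.5-fold. Calls in the same direction by both protocols, 0 in the report, were 1 in small intestine with median-of-ratios scaling (3.26% of all genes), 1 in colon with start points (2.83%), 1 in each with a penalty of 0.1 RPKM (5.33% and 2.55%), and 3 in colon and 2 in small intestine at 1.5-fold (7.62% and 3.36%). Intervals also moved on or off 1. With at most 1 mismatch those of Rspo3 and Fzd8 by cDNA and of Fzd2, Fzd4 and Wnt5a by RNA fragmentation came to hold 1, while by cDNA fragmentation those of Sfrp2 (1.62 to 19.2) and Wnt5a (0.638 to 0.986) left it, towards colon and small intestine respectively. With start points those of Rspo3 and Dkk1 by cDNA and of Fzd2 and Wnt5a by RNA fragmentation came to hold 1, and Sfrp2 by cDNA fragmentation left it towards colon. With median-of-ratios scaling those of Rspo3 and Fzd3 by cDNA and of Fzd2, Fzd4, Sfrp1 and Wnt5a by RNA fragmentation came to hold 1, and Fzd7 and Wnt5a by cDNA fragmentation left it towards small intestine. Own-strand reads moved Wnt2b by RNA fragmentation to the colon side, and junction reads, an alternative added after seeing the data, brought Rspo3 by cDNA fragmentation to hold 1. Own-strand reads, junction reads and unshared blocks moved no count of calls past 1.5 times. The RNA fragmented libraries are shallower, so low genes are measured less precisely there.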
